A study of Mus musculus with 2 samples.

Results

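Clusters of closely spaced weak peaks that the authors did not assign to a gene were examined in a YTHDF2 RNA immunoprecipitation (RIP) experiment. A peak was eligible if it was absent from the authors' deposited table of peak-related genes and had a pileup, the summed fragment coverage at its summit, below 45. Eligible peaks on a chromosome were chained when the gap from the end of one to the start of the next was at most 10000 bp, and chains of 5 or more peaks were called clusters. Of 9271 peaks, 1541 were in the gene table, 1134 were outside it with a pileup of 45 or more, and 6596 were eligible. The chains held 813 peaks in 126 clusters, which is 12.3% of the eligible peaks and 8.77% of all peaks. Absence from the gene table, position and pileup chose the members. Of the 1541 gene-table peaks, 1540 overlapped an annotated exon and 0 were intronic, so the rule also selected on peak class. Counts, spans, spacing, peak class and peak strength are therefore given as description and carry no test.

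C2C12 is an immortal line of mouse myoblasts, the precursors of muscle fibres, and its cells fuse into myotubes when serum is lowered. Wild-type cells of this line were kept in 2% horse serum for 4 to 5 days with no further treatment, and 1 YTHDF2 RIP library and 1 input library were made from them, both with batch label 1. With 1 library per group, no value had a replicate, and no difference could be set against a spread between samples. An IgG pulldown named in the design was not analysed here, and the depth of either library is unknown. In the labels, the library preparation is described as if for DNA, so whether the fragments came from RNA through cDNA or from DNA recovered with it is not settled, which bears on every intron and intergenic peak described. The files used here hold peaks and no expression level, so the myotube label could not be checked against levels. Of 38 sarcomere genes, 4 were in the gene table (Mylpf, Neb, Tnni2 and Tnnt1), against 5.76% of all coding genes. No peak lay over Myh1, Myh2, Myh3, Myh4, Acta1, Myod1, Myog or Mymk, some of which are short, such as Myog with 2560 bp. Other members of the sarcomere and myogenic lists did have peaks, among them Tcf12 with 33, Celf2 with 31 and Ttn with 3. Of 26 myogenic regulators and fusion genes, 5 were in the gene table. The share of all coding genes without any peak was not computed, so these absences say little about the label. The immune and hepatocyte list and the endothelial and adipocyte list, of 14 genes each, had no member in the gene table or with an eligible peak, which at that share says little.

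YTHDF2 is a mainly cytoplasmic protein whose YTH domain binds N6-methyladenosine (m6A), a methyl mark on adenosines in RNA, and it is best known for bringing marked messages to the deadenylation and decay machinery. The mark is written co-transcriptionally in the consensus DRACH (any base but C, then a purine, then AC, then any base but G), and GGACH, the part of it that starts with GGAC, is a strongly methylated form. In mature messages m6A is concentrated near stop codons and in long exons. Introns are removed in the nucleus, and mammalian introns carry many copies of short interspersed elements, among them the mouse families B1 and B2.

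Sequences at 5 summits are shown because they cover kinds of sequence found in the clusters: unmasked intron sequence, a B1 copy and a pyrimidine-rich repeat. Each is the 151 bases centred on the summit of the peak with the highest fold enrichment in 1 of 5 hosts among those with most clustered peaks, leaving out chromosome 8, read 5′ to 3′ on the strand of the host gene from the GRCm38 (mm10) RefSeq genome. Capitals mark GGAC.
Brinp3, chr1:146883427-146883577, plus strand: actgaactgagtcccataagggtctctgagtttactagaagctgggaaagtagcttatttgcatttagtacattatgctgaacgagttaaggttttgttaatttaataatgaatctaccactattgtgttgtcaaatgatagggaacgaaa
Tcf12, chr9:72063733-72063883, minus strand: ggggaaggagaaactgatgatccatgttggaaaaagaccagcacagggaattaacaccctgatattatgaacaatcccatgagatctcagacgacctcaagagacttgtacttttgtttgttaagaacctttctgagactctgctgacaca
Mtdh, chr15:34119787-34119937, plus strand: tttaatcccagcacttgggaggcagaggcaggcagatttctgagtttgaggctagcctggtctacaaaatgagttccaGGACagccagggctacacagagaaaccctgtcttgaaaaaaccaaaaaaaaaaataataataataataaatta
Angpt1, chr15:42467767-42467917, minus strand: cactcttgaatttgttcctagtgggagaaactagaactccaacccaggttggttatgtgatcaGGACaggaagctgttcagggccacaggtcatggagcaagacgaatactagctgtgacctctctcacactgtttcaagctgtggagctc
Zfpm2, chr15:40776314-40776464, plus strand: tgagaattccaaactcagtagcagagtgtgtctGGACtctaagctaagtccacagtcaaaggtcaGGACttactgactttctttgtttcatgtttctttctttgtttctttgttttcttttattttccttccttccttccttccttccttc
All 5 peaks lay in introns. GGAC occurred in 3 of the 5, at 1 place in Mtdh and Angpt1 and at 2 places in Zfpm2. Over all 801 clustered peaks with a host, 30.0% of the 151-base windows held GGAC (240 peaks, 95% Wilson interval 26.9 to 33.2%), against 29.9% (28.7 to 31.2%) of 5085 eligible intron peaks outside clusters. The Mtdh stretch was soft-masked, that is marked as repeat in the genome sequence, over all 151 bases and the Zfpm2 stretch over 67, whereas the Brinp3, Tcf12 and Angpt1 stretches had no masked base.

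A cluster had a median of 6 peaks (quartiles 5 and 7, range 5 to 17) over a median span of 18355.5 bp (quartiles 13707.8 and 24491). The shortest span was 5083 bp and the longest 64312 bp, and all spans together made up 2526263 bp, 0.0927% of the placed chromosomes. Peaks covered a median of 9.27% of their cluster's span. The median gap between neighbouring peaks of a cluster was 2623 bp (quartiles 1138.5 and 5235, n = 687 gaps). Short gaps were common, with 22.1% of them under 1000 bp and 26.1% over 5000 bp. The gap from a cluster's edge to the next eligible peak had a median of 40021 bp, and that between all neighbouring eligible peaks was 24464 bp. Peaks were not evenly spaced: the standard deviation of the gaps divided by their mean had a median of 0.751 over clusters (quartiles 0.577 and 0.91).

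**Figure D1:**
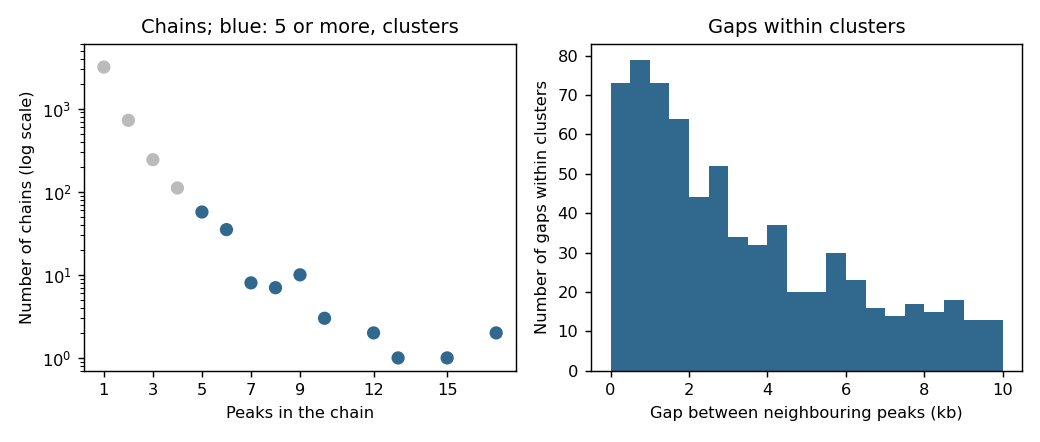
Left, the number of chains (log axis) by the number of eligible peaks in them, with the 126 clusters of 5 or more peaks in blue and shorter chains in grey. Right, the 687 gaps within clusters in bins of 0.5 kb; most gaps are short, and their median is 2623 bp.

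Chain sizes fell off without a break at the threshold of 5. Chains of 4 numbered 111 (444 peaks) and chains of 5 numbered 57. Peaks in chains of 4 had a median fold enrichment of 4.57 and 29 RIP fragments, and those in clusters of 5 had 4.67 and 27. The highest pileup admitted was 44.1 and the lowest left out was 45, the largest gap inside a cluster was 9926 bp, and the smallest gap beyond an edge was 10021 bp. Clusters lay on all 19 autosomes and on X. Chromosome 1 had 15 clusters (109 peaks), chromosome 15 had 13 (85 peaks) and chromosome 9 had 10 (75 peaks). The gene Brinp3 alone gave 5 of those on chromosome 1 (38 peaks). On chromosome 15, Angpt1, Zfpm2, Trps1 and Nipbl gave 2 each, as Tcf12 and Phip did on chromosome 9. These counts were not set against chromosome length or eligible peaks per chromosome.

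Fold enrichment, the authors' linear ratio of RIP pileup to local input background at the summit, had a median of 4.64 over clustered peaks (quartiles 3.72 and 5.67, range 2.11 to 14.7). The median RIP count at the summit was 28 fragments (range 9 to 49), where 1 fragment is 1 step of 0.9 in the pileup, and the median input background was 4.97 on the pileup scale. Eligible peaks outside clusters had a median fold of 4.8, 24 fragments and a background of 3.65. Within the host genes themselves, the 360 eligible peaks that belonged to no cluster had a median fold of 4.85, 25 fragments and a background of 4.0. Peaks of the gene table were stronger in count and lower in ratio, with medians of 57 fragments, a background of 15.0 and a fold of 3.25. Clustered peaks were therefore a little higher in both RIP and input coverage than other eligible peaks and not higher in their ratio. The pileup limit caps the fold that a peak over a given background could reach, and the median fold of a cluster ran from 2.84 to 7.83.

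**Figure D2:**
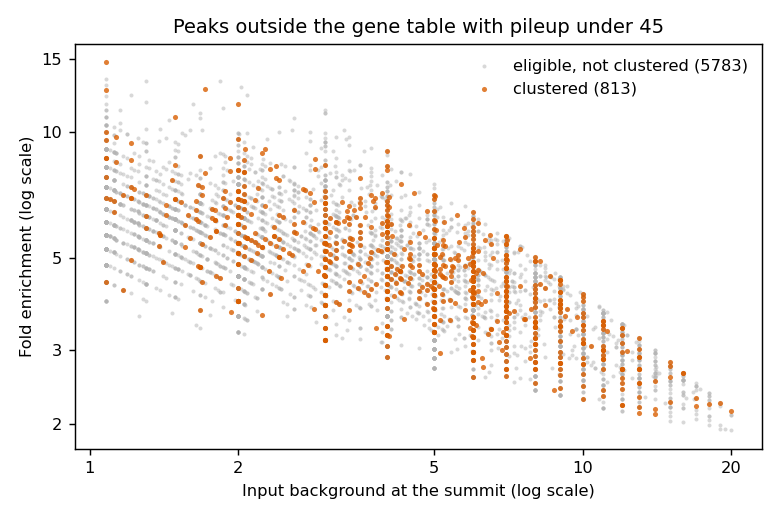
Fold enrichment (vertical, log axis) against input background at the summit (horizontal, log axis) for the 813 clustered peaks in orange and the 5783 other eligible peaks in grey, 1 point per peak. Both sets fill the same region; the upper right edge is set by the pileup limit of 45, and the highest clustered peak, at 14.7, lies at the lowest background, 1.08.

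Introns held 729 of the 813 clustered peaks, or 89.7% (95% Wilson interval 87.4 to 91.6%), by overlap of at least 1 bp with GENCODE M21 exons and then gene bodies. The share among eligible peaks outside clusters was 88.9% (88.1 to 89.7%), and the intervals overlapped. Over all 9271 peaks it was 72.9%, and 0 of the 1541 gene-table peaks, which the rule left out, were intronic. Leaving out those peaks raised the intron share of both sets by construction. Exons held 72 clustered peaks (8.86%), of which 38 touched an exon of a protein-coding gene, and 12 lay between genes, which is 1.48% (0.846 to 2.56%) against 3.48% (3.03 to 3.98%) outside clusters. These intervals cover counting error only, and peaks of 1 cluster are not independent. In 90 clusters every peak was intronic. A peak of the gene table lay within the span of 9 clusters and a peak of pileup 45 or more within 25, while 95 clusters had neither.

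A host, the gene body over most of the cluster's peaks, was found for 124 clusters. The 111 hosts were 108 protein-coding genes and 3 non-coding ones (Dleu2, Gm20732 and Gm26549), 59 on the plus strand and 52 on the minus strand. Of 21938 protein-coding genes, 0.492% hosted a cluster, and of the 2362 with at least 1 eligible peak, 4.57% did. Among 367 genes with at least 5 eligible peaks, 106 were hosts, or 28.9%. Most hosts (101) had 1 cluster, and 10 had more and held 23 clusters between them: Brinp3 had 5, and Tcf12, Angpt1, Zfpm2, Phip, Dlg1, Ssbp2, Trps1, Zcchc7 and Nipbl had 2 each.

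Hosts were long genes. Coding hosts had a median length of 96549 bp (quartiles 65545 and 160590.2, range 17215 to 519162), against 17425 bp over all coding genes and 68671.5 bp over coding genes that had an eligible peak and no cluster. They were shorter than the 261 genes with at least 5 eligible peaks and no cluster, whose median was 137527 bp. Of the 2534 coding genes between the quartiles of host length, 2.13% hosted a cluster. A coding host held a median of 9 eligible peaks (range 3 to 51), and a median of 75% of a host's eligible peaks were clustered. The spans covered a median of 19.2% of the host gene and at most 70.2%.

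**Figure D3:**
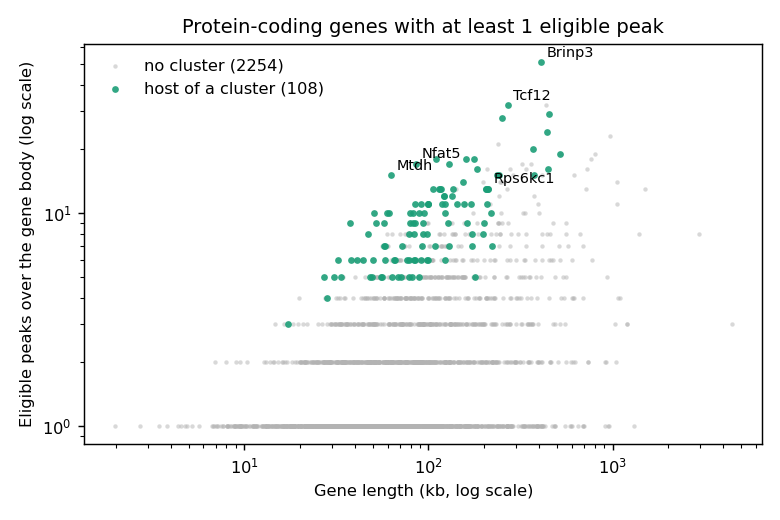
Eligible peaks over the gene body (vertical, log axis) against gene length in kb (horizontal, log axis) for 2362 protein-coding genes, with the 108 hosts in green and the other 2254 in grey. Hosts sit among the genes with most eligible peaks for their length, which the rule of chained eligible peaks favours by construction. Brinp3 is highest with 51, and Mtdh reaches 15 in a gene of 62931 bp.

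Of the 108 coding hosts, 50 were also in the authors' gene table through another peak, or 46.3% (95% Wilson interval 37.2 to 55.7%). The share was 5.76% over all coding genes, 20.6% over those with an eligible peak and no cluster, and 30.3% over those with at least 5 eligible peaks and no cluster. The hosts' share was the highest of these. The rule itself drew on the gene table, and the last group was added after the values were seen. Its genes were also longer than the hosts, with a median of 137527 bp against 96549 bp. The difference was not tested.

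Clusters were spread along their hosts. The centre of a cluster stood at a median of 44.0% of the gene from its start (quartiles 24.2 and 62.1%), with 44 clusters in the 5′-most part of 3 equal parts of the gene, 52 in the middle part and 28 in the 3′-most part. Introns were taken as the gaps left after merging the exons of all annotated transcripts of a gene, and were numbered from its 5′ end. Their numbers and lengths can therefore differ from those of any 1 transcript. In 39 of 124 clusters the centres of all peaks lay in 1 intron of the host, whose median length was 44633 bp, and in 10 of these it was the first intron. In 36 of the 39 no peak touched an exon of any annotated gene, and in 3 (Ppp1r12b, Cacna2d1 and Lysmd4) some did. In the other 85 clusters the centres were spread over several introns or lay in an exon, and a cluster had peaks in a median of 2 introns and at most 7. The spans held 2 small nucleolar and 2 small nuclear RNA genes, none of them under a clustered peak, and no annotated microRNA gene. The spans made up 0.0927% of the placed chromosomes, and the counts over the whole genome were not set beside these, so they say little.

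Brinp3, a gene named for its neural expression and its induction by bone morphogenetic protein and retinoic acid, had the most clustered peaks. Its 5 clusters on chromosome 1, from chr1:146503629-146509568 to chr1:146878430-146889515, held 38 of the gene's 51 eligible peaks. The gene of 407713 bp also had 105 peaks of pileup 45 or more and 3 peaks in the gene table, 159 in all, so its weak peaks lay among strong ones. Fold enrichment of the 38 ranged from 2.11 to 6.51 with a median of 4.28, and 13 of the strong peaks lay inside the 5 spans. The densest of the 5, in intron 3, had 5 peaks in 5940 bp with 36, 24, 44, 40 and 41 RIP fragments and fold enrichments of 5.35, 3.77, 3.69, 6.17 and 3.45. Without Brinp3, 121 clusters of 775 peaks remained, and the median fold was 4.65. Of 20 neuron markers none hosted a cluster and 2 had an eligible peak. Over all 21938 coding genes, 0.492% were hosts and 2362 had an eligible peak, so these counts say little.

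Tcf12 encodes an E protein, a basic helix-loop-helix factor that pairs with MyoD and other myogenic factors. It had 27 clustered peaks of 32 eligible ones in 2 clusters and only 1 strong peak. The larger cluster, chr9:72039642-72103953, had the longest span of all, 64312 bp, and its 17 peaks all lay in intron 4, which is 90427 bp long. Their RIP counts ran from 21 to 46 fragments and their folds from 2.33 to 7.04 with a median of 3.79. The second cluster, chr9:71927177-71964889, had 10 peaks over introns 7 to 9 with a median fold of 4.41 (2.98 to 6.28). The folds of the 2 clusters overlapped over most of their ranges.

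Nfat5, the transcription factor of the response to hypertonic stress, tied Tcf12 for the largest cluster. Its 17 peaks at chr8:107301646-107360024 were all of the gene's eligible peaks, covered 67.8% of the gene and fell in 7 introns between introns 2 and 11. Their folds ranged from 2.17 to 5.52 with a median of 4.27. A further 13 peaks of pileup 45 or more lay in the same span, so the pileup limit split a run of peaks here, as it did in Brinp3.

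Mtdh, which encodes metadherin, a protein of the endoplasmic reticulum membrane, had all 15 of its eligible peaks in 1 cluster, chr15:34092166-34130899, over 61.5% of the gene. It differed from most hosts in that 6 of the 15 peaks touched an exon of some annotated transcript. The RIP counts ran from 17 to 47 fragments and the folds from 2.95 to 6.32, and the peak with a fold of 6.32 (95% Poisson interval 4.65 to 8.41, 45 fragments) was the B1-holding stretch printed above.

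Rps6kc1, a kinase-like protein that binds sphingosine kinase, had 13 peaks, all eligible and all in intron 7 (26989 bp), at chr1:190845541-190870481. In order along the chromosome the peaks had 27, 28, 33, 29, 31, 24, 34, 41, 36, 36, 35, 23 and 41 RIP fragments. Their folds were 6.08, 6.03, 5.12, 6.26, 4.8, 4.52, 3.95, 5.6, 3.34, 6.63, 4.64, 3.62 and 2.71. The RIP counts ran from 23 to 41 fragments, a range that the pileup limit bounds from above. The lowest fold belonged to the peak with the highest input background, 13, which follows from computing the background from pileup and fold. Nothing in the gene outside this intron was called.

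Among hosts with signalling and matrix roles, Angpt1, a ligand of the endothelial receptor Tek, had 13 of 28 eligible peaks in 2 clusters with a median fold of 5.0. Zfpm2, a cofactor of GATA factors, had 13 of 29 in 2 clusters with a median fold of 5.17 (3.85 to 8.3), and 1 of them spanned 45475 bp. Unc5c, a netrin receptor, had 12 of 20 in intron 1, which is 189376 bp long, at chr3:141500824-141539197, with folds from 3.26 to 6.87. Col5a2, a fibrillar collagen chain, also had 12 peaks in intron 1, at chr1:45453586-45480430, with folds from 2.8 to 8.13, and 4.53 as their median. Fgf10, a fibroblast growth factor, had 9 of 12 eligible peaks in intron 4, as numbered over the merged exons, with a median fold of 6.03. The clusters in the first introns of Unc5c and Col5a2, with median folds of 4.93 and 4.53, stood near the median of all clusters, 4.58, and that of Fgf10 stood above it.

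Other hosts with 10 or more clustered peaks were Phip (12 peaks, median fold 4.72), a bromodomain protein that binds insulin receptor substrates, Dlg1 (11, 5.27), a membrane scaffold, Ssbp2 (11, 4.47), a cofactor of LIM-domain complexes, Trps1 (11, 4.36), a GATA-type repressor, Zcchc7 (11, 4.08), a zinc-knuckle protein of nuclear RNA surveillance, Kpna4 (10, 4.78), an importin, Nipbl (10, 5.08), the cohesin loader, and Pafah1b1 (10, 3.93), a dynein regulator. Kdm6a, a histone demethylase, and Ppp1r12a, a targeting subunit of myosin phosphatase, had fewer peaks over long spans of 43935 and 43912 bp. The known roles of these hosts range from chromatin to membrane scaffolds.

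**Figure D4:**
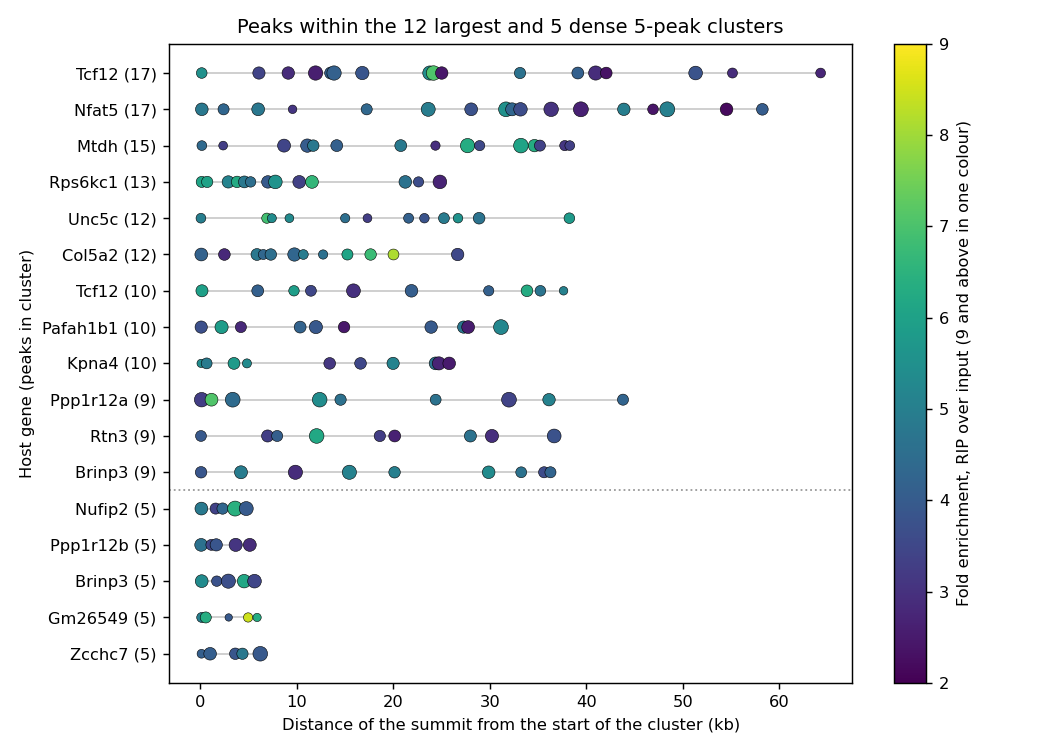
Summits along 17 clusters, with distance from the cluster's start in kb (horizontal) and 1 line per cluster (vertical, host and number of peaks). Colour gives fold enrichment and larger points have more RIP fragments; the 12 clusters with most peaks are above the dotted line and the 5 densest clusters of 5 peaks with a host below it, which span 5083 to 6266 bp.

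The densest cluster was in intron 4 of Nufip2, whose product binds the fragile X protein: 5 peaks in 5083 bp (chr11:77699538-77704620), or 9.84 per 10 kb, against a median of 3.38 over clusters. They had 36, 27, 28, 49 and 43 RIP fragments and folds of 4.83, 3.37, 4.28, 6.44 and 3.97. Ppp1r12b, another targeting subunit of myosin phosphatase, followed at 9.62 per 10 kb, and 4 of its 5 peaks touched an annotated exon. A 5-peak cluster of Brinp3 (8.42), the non-coding gene Gm26549 (8.3), Zcchc7 (7.98), Phip (7.46) and Sltm (6.97), a nuclear RNA-binding protein, were also among the 10 densest. Dense clusters were not of higher fold as a group, with cluster medians from 3.45 in Ppp1r12b to 6.3 in Gm26549.

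Ythdc1, the nuclear reader of m6A, hosted the eighth densest cluster, at chr5:86805620-86812132 with 7.68 peaks per 10 kb. Its 5 peaks had 28, 24, 17, 18 and 41 RIP fragments and folds of 7.75, 3.23, 3.92, 4.3 and 5.41, and 2 of them touched an exon. A long non-coding gene, Gm43055, overlaps them, and the data do not say which transcript the fragments came from. Ythdc1 was the only host among 24 writers, erasers and readers of m6A, where 0.492% of all coding genes were hosts. Of the 24, 12 had an eligible peak, against 2362 of 21938 coding genes. Fto, an eraser, came next with 5 eligible peaks in a gene of 354915 bp and no cluster.

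The peak with the highest fold was in Iqcb1, which encodes a protein of the primary cilium. It had a fold of 14.7 (95% Poisson interval 10.3 to 20.5, 33 fragments) at chr16:36854142-36854714. In order, the 6 peaks of that cluster had folds of 3.88, 5.13, 9.99, 8.69, 6.96 and 14.7 and input backgrounds of 9.0, 2.0, 1.08, 1.08, 1.08 and 1.08. The last 4 stood at the lowest background of the list, so their high ratios rest on little or no local input. The gene Eaf2 runs over the same peaks on the opposite strand, and the strand of the fragments was not stated. Next came Dleu2, a non-coding gene that hosts microRNAs, at 12.7 (9.02 to 17.3, 37 fragments), Atf2, a stress-responsive transcription factor, at 12.6 (8.52 to 18, 28 fragments), and Fgf10 at 11.7 (8.4 to 16.0, 38 fragments). Usp15, a deubiquitinase, had peaks at 10.9 and 9.42, 1110051M20Rik had peaks at 9.74 and 9.56, and Rsrc1, a splicing-related protein, had one at 9.63. The backgrounds of these peaks were also low, against a median of 4.97 over clustered peaks. They were 1.71 in Dleu2, 1.08 in Atf2, 2.0 in Fgf10 and Rsrc1, 1.49 and 1.21 in Usp15, and 1.13 and 1.08 in 1110051M20Rik. The intervals of these peaks overlapped one another, so their order is not resolved.

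In 2 clusters no gene lay over most of the peaks. At chrX:68501572-68533406, 7 peaks lay between genes except for 1 over the pseudogene Gm6806, and the nearest coding gene was Fmr1, 145135 bp away. At chr14:97347992-97354463, 5 peaks lay at 7.73 per 10 kb with no gene under them, 432390 bp from Dach1 and 828890 bp from Klhl1, the nearest coding genes. Elsewhere clusters also came near one another: 19 of 106 neighbouring pairs on a chromosome were less than 500000 bp apart, 13 of them in the same host and 6 in different hosts. The 2 clusters of Trps1 were 11482 bp apart, and the nearest pair in different genes, Snapc3 and Psip1, was 17805 bp apart.

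The counts by role stand beside the shares over all coding genes, of which 0.492% were hosts, 4.57% of those with an eligible peak and 2.13% of those between the quartiles of host length. An eligible peak lay over 2362 of the 21938 coding genes. Chromatin regulators gave 4 hosts of 36 (11.1%): Phip with 12 clustered peaks, Kdm6a with 8, Suz12, a Polycomb subunit, with 6, and Ash1l, a histone methyltransferase, with 5. Of the 36, 22 had an eligible peak and 32 were at least as long as the lower quartile of hosts, 65545 bp. Transcription factors outside the myogenic list gave 3 of 34 (Nfat5, Zfpm2 and Nfatc3), and myogenic regulators gave 2 of 26, Tcf12 and Celf1, an RNA-binding protein of muscle splicing with 8 of 9 eligible peaks clustered. Eya4 had 14 eligible peaks and Celf2 had 23 with no cluster. Mef2a, with 13, was not counted as a host, but a cluster of 6 peaks at chr7:67270999-67289341 that was assigned to Lysmd4 lies over Mef2a on the opposite strand, so the count of myogenic hosts depends on that assignment.

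Genes of deadenylation and RNA decay gave 2 hosts of 28 (7.14%), and 16 of the 28 had an eligible peak: Cnot6l, a deadenylase of the CCR4-NOT complex, with 7 clustered peaks over introns 9 to 13, and Xrn2, a nuclear exoribonuclease, with 6 over introns 12 to 19. Matrix genes gave 2 of 30 (Angpt1 and Col5a2), adhesion and guidance genes 2 of 30 (Unc5c and Alcam) and calcium handling 1 of 28 (Cacna2d1). No host came from 38 sarcomere genes, 22 genes of the dystrophin complex and membrane repair, 20 ribosomal protein genes or 16 glycolytic genes. With 0.492% of all coding genes as hosts, a count of 0 in lists of this size is no result about them. The sarcomere genes were short, with a median of 26654 bp, and only Ttn among them had an eligible peak. The dystrophin list had a median length of 85823 bp and 8 members with an eligible peak. The counts per list are small, the members were picked with earlier results known, and gene length differed between lists, so the shares are descriptions.

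Sequence was a property that the rule did not use directly, though leaving out the gene table left out mainly exon sequence. On the strand of the host gene, the 801 clustered peaks with a host were compared with 635 windows of the same width at the middle of the gaps between them, so both came from the same clusters, though not always from the same intron. Guanine made up 22.6% of bases in peaks and 19.1% in windows, and adenine 27.1% and 30.3%. Guanine was higher in peaks than in windows in 110 of 124 clusters, lower in 13 and equal in 1, and adenine was higher in 20 of the 124. Eligible intron peaks outside clusters had 24.2% guanine and 24.8% adenine. Peaks of the gene table, nearly all on exons, had 25.7% guanine and 25.4% adenine. Clustered peaks thus stood between the intron around them and other peaks.

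DRACH was no denser in the peaks than between them. It occurred 19.0 times per kb in clustered peaks and 20.0 times in the windows, a ratio of 0.95, and was denser in peaks in 51 clusters and in windows in 73. GGACH occurred 2.25 times per kb in peaks (95% Poisson interval 2.06 to 2.46) and 1.84 times in windows, a ratio of 1.23. It was denser in peaks in 76 clusters and in windows in 47. Guanine content, with a ratio of 1.18, moved in the same direction, and its part in the GGACH ratio was not tested. Eligible intron peaks outside clusters had 2.26 GGACH per kb, which lies within the interval of the clustered peaks. At least 1 GGACH stood in 44.7% of clustered peaks, 39.2% of windows, 42.0% of eligible intron peaks outside clusters and 47.2% of the mainly exonic gene-table peaks.

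**Figure D5:**
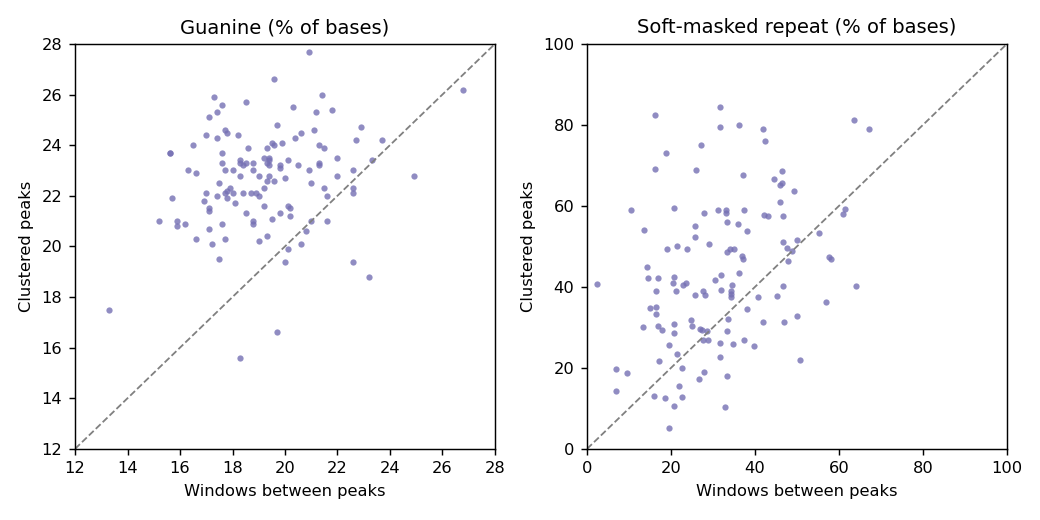
Guanine content (left) and soft-masked share (right) in percent of bases for the peaks of each of 124 clusters (vertical) against the windows between the peaks of the same cluster (horizontal), 1 point per cluster, with the line of equality dashed. Guanine lies above the line in 110 clusters and the masked share in 87.

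Repeats were another difference. Soft-masked bases made up 42.3% of clustered peaks, 31.3% of the windows and 41.0% of eligible intron peaks outside clusters, against 16.5% of gene-table peaks. Gene-table peaks were nearly all on exons, so that last contrast cannot be told apart from intron against exon sequence. More than 50% of the bases were masked in 41.8% of clustered peaks and in 21.9% of windows. The masked share was higher in peaks in 87 clusters and lower in 37. At the extremes, 13 clusters had no mostly masked peak and 8 had no other kind. Mostly masked peaks had a median fold of 4.74 and 30 RIP fragments (n = 335), and the others, which can still hold some repeat, had 4.56 and 26 (n = 466). Reads from near-identical repeat copies cannot always be placed, and how the authors placed them is not given in the sources used here; its part in these shares was not tested.

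Words of 12 bases that recurred among clustered peaks were counted on both strands, and are shown because they name the repeats. They were chosen on the clustered peaks after the values were seen, so their excess there is a description, and the 6 words can occur in the same peak.
B1 word, antisense to the element: TGTAGACCAGGC
B1 word, antisense to the element: GTGCTGGGATTA
B2 word: AGCAACCACATG
Thymine run: TTTTTTTTTTTT
TTTG repeat: TTTGTTTGTTTG
TG repeat: TGTGTGTGTGTG
The leading word, TGTAGACCAGGC, or its reverse complement, the gcctggtctaca of the Mtdh stretch, stood in 98 of 801 clustered peaks, or 12.2% (95% Wilson interval 10.1 to 14.7%). It stood in 2.83% of windows (1.8 to 4.44%), 11.2% of eligible intron peaks outside clusters (10.4 to 12.1%) and 2.43% of the mainly exonic gene-table peaks. On the host strand 69 clustered peaks held it as written and 29 in reverse complement, whereas windows had 8 and 11. The same lean was present in the intron peaks outside clusters, with 437 as written and 140 in reverse complement. B1 copies under intron peaks were thus mostly antisense to the host gene, in clusters and outside them.

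The second B1 word, GTGCTGGGATTA, stood in 10.1% of clustered peaks and 2.68% of windows, again mostly as written (56 against 25). The B2 word, AGCAACCACATG, stood in 5.62% and 2.05%, with 26 as written and 19 in reverse complement. Thymine runs stood in 10.5% of peaks and 4.57% of windows. The TTTG repeat was in 5.37% of peaks and 1.89% of windows, with 38 as written and 6 in reverse complement. Among eligible intron peaks outside clusters, the second B1 word stood in 9.07% and the B2 word in 3.85%. Thymine runs stood in 9.05% of those peaks and the TTTG repeat in 3.99%. TG repeats were in 43 clustered peaks (5.37%, 4.01 to 7.15%), 34 of them as written. Their share was 3.31% (2.17 to 5.0%) in windows and 6.96% in eligible intron peaks outside clusters. Peaks with the leading word had a median fold of 4.56 and those without it 4.64. The word was present in 62 clusters, in 2 or more peaks of 26 clusters and in at most 5 peaks of 1 cluster.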

How the data were processed

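Material recovered with YTHDF2 and input were sequenced as paired-end libraries, 1 each. RNA was extracted but the library steps are worded for DNA, per the labels' protocols, so the fragments may not all derive from RNA. Bowtie aligned the reads to mm10 and MACS called the peaks, per the series' design text, while tool versions and settings and the strand of the reads are not given in the sources used. The submitters' processing notes further name DiffBind, deepTools, HOMER, Picard, Trim Galore and FastQC. In the peak list the authors deposited, the columns hold the pileup signal at each summit, the fold enrichment (a linear ratio to local input) and −log10 of the p-value and q-value, together with peak positions. These scores are the authors' own and were used to describe or filter peaks within 1 list.

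All pileups were whole multiples of 0.9 (tolerance 1e-06), read as 1 fragment per step. The input background was computed as (pileup + 1) / fold − 1. Genes came from GENCODE M21 and sequence from the GRCm38 RefSeq genome, the build of the files. Positions are 1-based. Intervals are 95% Wilson or exact Poisson intervals for counting error only, with the background held fixed. PCR copies are not independent fragments. Python 3.11.15, pandas 2.3.3, scipy 1.17.1 and pysam 0.24.0 were used, and chaining and motif counting were tested on simulated data. Windows between peaks that touched another peak were left out (42 of 677).

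The members and the 16 gene lists were chosen with earlier results of these data known. Hosts named are the 15 with most clustered peaks, those of the 10 densest clusters, of the 5 longest spans and of the 10 peaks of highest fold, and list members that hosted a cluster, at most 4 per list. Genes named beyond these were chosen after their values were seen. The split by masked share, the comparison with other peaks of the same hosts and the genes with at least 5 eligible peaks were also added after the values were seen. The authors' tables of element counts, Gene Ontology terms and KEGG pathways describe the gene table and were not used. No test between groups was made, as each group had 1 library. Some members that these rules name are not reported here.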

Additional observations from a re-analysis of the deposited data

How the results depend on the processing

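Of 61 values recomputed under 11 alternative settings, 31 stayed close to the reported one and 30 moved. A count was called close within a ratio of 1.5, so 161 hosts without the pileup limit, against 111, passed. Any other value was called close inside the 95% interval of the reported one. Sizes of the set follow the chaining rule. With gaps of at most 5000 bp there were 51 clusters of 301 peaks in 46 hosts, with a spacing of 1641 bp and 2.53 GGACH per kb. With gaps of at most 20000 bp there were 237 clusters of 1687 peaks in 217 hosts, with a spacing of 4052 bp. Chains of at least 3 peaks gave 480 clusters, 1986 peaks, 374 hosts and 37 hosts on the lists, against 18. Chains of at least 8 peaks gave 26, 262 and 23. Without the pileup limit there were 190 clusters of 1420 peaks, a spacing of 2161 bp and a median fold of 4.20. A q-value of 1e-05 or less left 58 clusters, 341 peaks and 51 hosts, with a median fold of 5.17. Chaining all peaks, gene table included, gave 228 clusters, 1701 peaks, 196 hosts, a spacing of 2170 bp, an intron share of 80.0% and a fold of 4.12. The shifts in number and spacing follow from the construction of each rule; the cause of the others was not tested. The intron share otherwise ranged from 87.4 to 91.2%. Placing peaks by their centre kept 111 hosts, and without Brinp3 no value moved.

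No paired analysis was possible because each group had 1 library. The depth of the libraries is unknown, a summit rests on 9 to 49 fragments, and no value has a measured biological or technical spread.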
